A study of Mus musculus with 16 samples.

Results

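Caspases are the proteases that carry out and start cell death, and death receptors are the surface proteins through which other cells can switch them on. The mRNA levels of 8 such genes, chosen by name, were followed in B16F10 melanoma tumors: the caspases Casp1, Casp2, Casp4, Casp6, Casp8 and Casp9, and the receptors Fas and Tnfrsf10b. They are 8 of the 45777 genes listed in the deposited table, and all 8 were among the 16209 genes with a count above 0 in every tumor, which were the genes tested. B16F10, a melanoma line of C57BL/6 origin, had been injected under the skin of mice aged 6 weeks, either lean C57BL/6J mice or C57BL/6J-ob/ob mice, which lack leptin and become obese. Tumors were taken either before therapy or after etoposide (ETS), which traps topoisomerase on DNA and leaves breaks. It was given as 5 daily injections of 20 mg per kg once a tumor had reached about 100 mm3. Treated tumors were collected a day after the course. When the tumors before therapy were taken, and whether those mice were given vehicle, is not stated in the sources used here. The term ETS effect below means the difference between these groups. Within it, the drug cannot be told apart from any difference in days of growth, tumor size or injection. There were 4 tumors in each of 4 groups: lean before therapy (B6_ctrl), lean after ETS (B6_ETS), obese before therapy (ob_ob_ctrl) and obese after ETS (ob_ob_ETS). All tumors came from the same cell line, the groups before therapy received no agent that the labels name, and the labels do not tie any tumors to the same mouse, so p-values measure the spread between these tumors. The series asked how obesity changes the response of tumors to chemotherapy, and the 8 genes belong to the death machinery behind that response.

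Caspases are made as inactive precursors. Initiator caspases are activated on platforms: Casp8 at ligand-bound death receptors such as Fas and Tnfrsf10b (the mouse TRAIL receptor), Casp9 on the apoptosome that forms when cytochrome c leaves mitochondria, and Casp2 on the PIDDosome after DNA or centrosome damage. They cleave executioners, among them Casp6, while the inflammatory caspases Casp1 and Casp4 (called caspase-11 in the mouse) cut gasdermin D and are best known from macrophages. Since activity depends on cleavage, mRNA levels show how much message for the precursors was present and not how active the enzymes were.

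The total counts per tumor were between 47199949 and 61655287. Reads per tumor were fewest for Fas (2 to 126), Casp1 (19 to 880) and Casp4 (55 to 592), while each of the other 5 genes had 552 or more. The melanoma identity in the labels was checked with 8 melanocyte markers (such as Tyr, Dct and Pmel), whose summed level was between 9129 and 22038 TPM, a unit scaled for gene length and for library size, in the 16 tumors, and none of them was at 0. The tumors also held other cells: 9 macrophage markers summed to 762 to 2031 TPM in lean tumors before therapy, 69.7 to 482 TPM in lean tumors after ETS, 63.3 to 384 TPM in obese tumors before therapy and 457 to 1493 TPM in obese tumors after ETS. Tumor 4 of the obese ETS group stood apart from the other 3, with 2116 TPM of summed fibroblast markers against 230 to 544 TPM. In tumor 2 of that group, keratinocyte markers summed to 98.1 TPM, when they were at 0 in the other 3, and skeletal muscle markers to 298 TPM, against 1.21 to 2.38 TPM. Skeletal muscle markers also summed to 176 and 43.5 TPM in lean tumors 2 and 4 before therapy. After ETS they summed to 186 and 134 TPM in lean tumors 1 and 2. Neutrophil markers summed to 67.6 TPM in obese tumor 4 before therapy and 83.3 TPM in obese tumor 4 after ETS. In the other tumors they summed to 11.9 TPM or less. Values without tumor 4 of the obese ETS group are given where they matter, and leaving out tumor 2 of that group changed no call of the 8 genes. In bulk tumors, fewer cells of a type and less RNA per cell cannot be told apart.

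Of the 8 genes, Casp1 and Casp4 lie next to each other, at chr9:5298517-5307281 and chr9:5308849-5336791 (GRCm38.p6, the mm10 build, plus strand), with 1567 bases between the end of the first and the start of the second. Fas lies at chr19:34290647-34327775, Casp2 at chr6:42264902-42282508, Casp6 at chr3:129901415-129914112, Casp8 at chr1:58795233-58847503, Casp9 at chr4:141793612-141815978 and Tnfrsf10b at chr14:69767472-69784411, all on the plus strand. The RefSeq (GRCm38.p6) promoter windows of Casp1, Casp4 and Fas, from 250 bases before to 50 bases after the start, are shown because the ETS effects in obese and lean tumors were farthest apart for these 3 genes. They were searched on both strands for TTCNNNGAA, the GAS element of genes induced by interferon gamma, and for GAAANNGAAA, the repeat bound by interferon regulatory factors (both hold GAA, so a stretch can match both), and a match is written in capitals. Windows follow for Casp1 (chr9:5298267-5298566, plus strand), Casp4 (chr9:5308599-5308898, plus strand) and Fas (chr19:34290409-34290708, plus strand).
Casp1: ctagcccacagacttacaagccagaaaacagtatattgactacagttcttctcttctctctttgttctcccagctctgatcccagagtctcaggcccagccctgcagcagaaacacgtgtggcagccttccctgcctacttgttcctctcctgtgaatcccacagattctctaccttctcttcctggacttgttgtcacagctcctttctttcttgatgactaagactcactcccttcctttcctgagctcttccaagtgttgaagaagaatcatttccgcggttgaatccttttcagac
Casp4: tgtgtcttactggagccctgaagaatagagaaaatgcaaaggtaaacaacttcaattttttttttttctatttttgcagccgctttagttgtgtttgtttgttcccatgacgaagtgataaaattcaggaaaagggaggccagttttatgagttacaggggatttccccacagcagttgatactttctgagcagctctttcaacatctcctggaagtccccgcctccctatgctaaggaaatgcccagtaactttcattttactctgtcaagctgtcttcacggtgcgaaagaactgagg
Fas: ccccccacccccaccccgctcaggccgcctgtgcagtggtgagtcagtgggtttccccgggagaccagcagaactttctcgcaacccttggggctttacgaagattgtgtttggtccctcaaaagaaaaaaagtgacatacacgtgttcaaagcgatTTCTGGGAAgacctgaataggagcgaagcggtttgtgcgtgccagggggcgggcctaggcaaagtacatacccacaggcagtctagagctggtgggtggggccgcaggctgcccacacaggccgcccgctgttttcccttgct
The single match was TTCTGGGAA in the Fas window, whose first base lies 93 bases before the start. Of 32851 windows of that length, 8.30% held the GAS letters and 3.44% the IRF repeat. Windows were found for 7 of the 8 genes, and the GAS letters were in 1 of the 7 and the IRF repeat in 0. A match in letters says nothing of binding in these tumors.

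After ETS, 7 of the 8 genes passed edgeR's quasi-likelihood test at the adjusted p threshold of 0.05 in lean tumors, of which 2 were higher and 5 lower, against 43.8% of all 16209 genes tested (21.0% higher, 22.8% lower). In obese tumors 5 passed, 4 higher and 1 lower, against 40.2% of all genes (21.2% higher, 19.0% lower). The direct test of the difference between the ETS effects passed for 6 genes, 5 with a more positive and 1 with a less positive effect in obese tumors, against 16.4% of all genes (10.1% more and 6.35% less positive). Before therapy, obese and lean tumors differed in 7 genes, 2 higher and 5 lower in obese tumors, against 26.4% (13.5% higher, 12.9% lower). After ETS, 0 genes differed between the hosts, against 5.58% of all genes (3.28% higher, 2.30% lower in obese tumors), and 4 had an unadjusted p under 0.05, as did 25.0% of all genes. At a fold change of at least 2 with an unadjusted p under 0.05, 1 gene differed after ETS (Fas), against 6.69% of all genes. With adjustment, DESeq2 and edgeR's exact test also called 0, and limma on log2(TPM + 1) called 1, Fas.

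Over the 8 genes the median log2 change was -0.57 after ETS in lean tumors and 0.44 in obese tumors, against -0.015 and 0.0066 over all genes tested. On scaled counts (CPM), lean tumors before and after ETS did not overlap for 7 genes (41.2% of all genes), obese tumors before and after ETS for 6 (34.2%), lean and obese tumors before therapy for 8 (30.4%) and after ETS for 2 (13.2%). The levels below are in TPM, which can be compared between genes, while fold changes are log2 ratios from the counts under TMM scaling. On the TPM scale the median gene fell by 0.28 (log2) in lean tumors after ETS and by 0.052 in obese tumors, so that declines in lean tumors look deeper in TPM. With limma on log2(TPM + 1), 1 of the 8 genes was higher and 6 lower in lean tumors, when 1351 genes of all were higher and 7281 lower (3410 and 3689 under TMM). The same scale called 2239 genes more and 228 less positive in the difference (1630 and 1030 under TMM), 1127 higher and 2765 lower in obese tumors before therapy (2181 and 2099), and 663 higher and 128 lower after ETS (531 and 373).

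**Figure D1:**
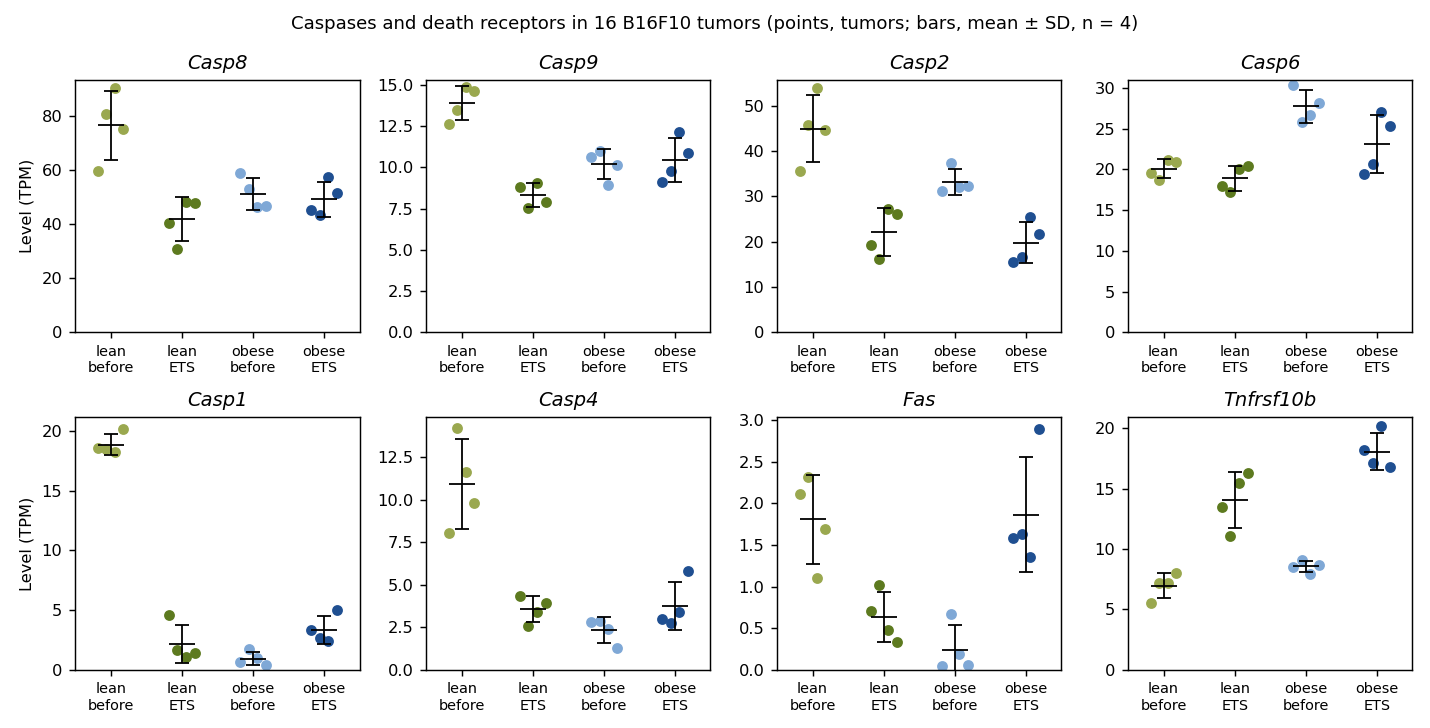
Level of each gene in TPM (vertical axis from 0) in the 4 groups. Points are tumors, bars the mean ± SD of 4 tumors (cut at 0 for Fas in obese tumors before therapy). Casp1 sits between 18.3 and 20.2 TPM in lean tumors before therapy and at 5.02 TPM or less in the other 12 tumors, and Tnfrsf10b is higher after ETS in both hosts.

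**Figure D2:**
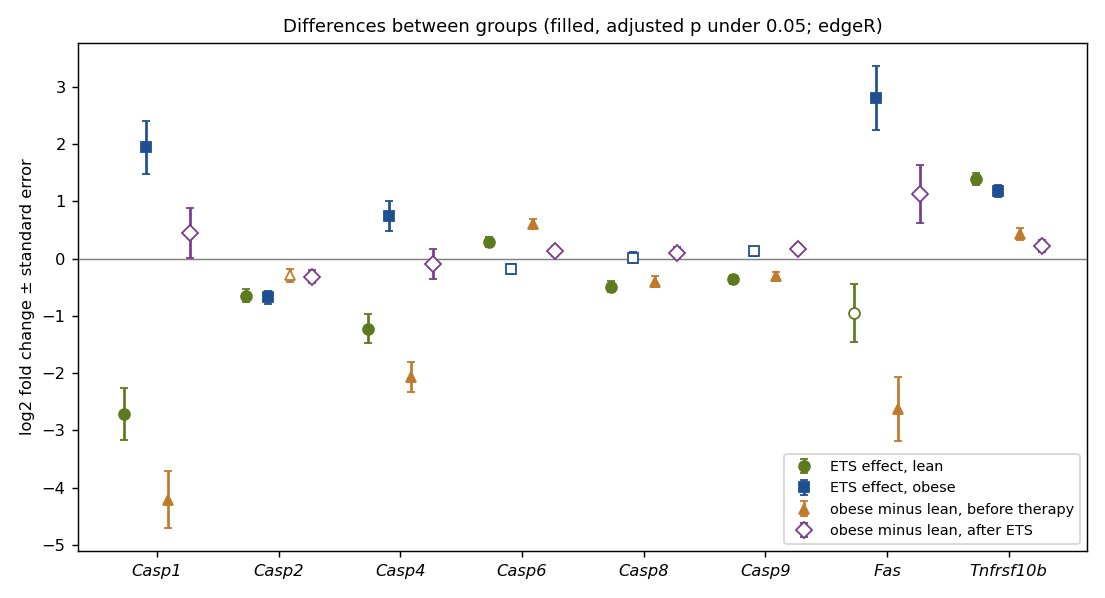
Log2 fold change ± SE (vertical axis) of the 8 genes for 4 comparisons. Filled symbols passed at the adjusted p threshold of 0.05 (edgeR). Casp1 and Casp4 passed in opposite directions in lean and obese tumors after ETS, Fas passed in obese tumors with an open symbol below 0 in lean tumors, and all symbols for obese minus lean tumors after ETS are open.

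Casp8, the initiator recruited by death receptors, was the most abundant of the 8 messages in each of the 16 tumors. Its level was 59.8, 81.1, 90.6 and 75.3 TPM in the 4 lean tumors before therapy and 40.7, 30.8, 48.4 and 47.9 TPM after ETS. In obese tumors it was 59.0, 53.1, 46.4 and 46.6 TPM before therapy and 45.2, 43.3, 57.5 and 51.5 TPM after ETS. All lean tumors before therapy lay above all other tumors, of which the other 3 groups overlapped. Casp8 fell in lean tumors after ETS, with a log2 fold change of -0.49 (SE 0.097, adjusted p = 0.00109). In obese tumors the change was 0.017 (SE 0.097, adjusted p = 0.914), with a 95% interval of -0.17 to 0.21. The difference between the ETS effects was 0.51 (SE 0.14, adjusted p = 0.0194), and its call was lost without a filter on low counts (adjusted p = 0.0525). Before therapy, Casp8 was lower in obese than in lean tumors, with a log2 difference of -0.40 (SE 0.097, adjusted p = 0.00651), and after ETS the difference was 0.11 (SE 0.097, adjusted p = 0.527).

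Casp9, the initiator of the apoptosome, was likewise highest in lean tumors before therapy, at a lower level than Casp8. It was at 12.6, 13.5, 14.8 and 14.6 TPM in lean tumors before therapy and 8.78, 7.54, 9.03 and 7.91 TPM after ETS. Obese tumors had 10.6, 11.01, 8.93 and 10.1 TPM before therapy and 9.09, 9.77, 12.1 and 10.8 TPM after ETS. The lean tumors before therapy were again above all others, the lean tumors after ETS were the lowest group by mean, and in TPM the obese groups overlapped each other. On scaled counts the obese groups did not overlap (17.9 to 21.1 CPM before therapy and 21.4 to 22.8 CPM after ETS). Lean and obese tumors after ETS did not overlap on either scale. Casp9 fell in lean tumors (-0.36 (SE 0.080, adjusted p = 0.00225)). In obese tumors the change was 0.12 (SE 0.080, adjusted p = 0.225), and the ETS effects differed by 0.49 (SE 0.11, adjusted p = 0.00797). It was lower in obese tumors before therapy (-0.31 (SE 0.080, adjusted p = 0.00906)), whereas after ETS the obese minus lean difference was 0.18 (SE 0.080, adjusted p = 0.186). The gene overlaps Cela2a on the opposite strand, and whether the counting used the strand is not given in the sources used here.

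Casp2, the initiator of the PIDDosome, fell in both hosts. Its level was 35.6, 45.8, 53.8 and 44.6 TPM in lean tumors before therapy and 19.3, 16.1, 27.3 and 26.0 TPM after ETS. In obese tumors it went from 31.1, 37.3, 32.0 and 32.3 TPM to 15.5, 16.6, 25.4 and 21.6 TPM. No tumor after ETS reached the level of any tumor of its host before therapy. Its level was 1.57-fold lower in lean tumors (-0.65 (SE 0.12, adjusted p = 0.000523)) and 1.60-fold lower in obese tumors (-0.68 (SE 0.12, adjusted p = 0.000492)). The difference between these effects was -0.026 (SE 0.16, adjusted p = 0.931), with a 95% interval of -0.35 to 0.29. Obese and lean tumors did not pass the test before therapy (-0.29 (SE 0.12, adjusted p = 0.0753)) or after ETS (-0.32 (SE 0.12, adjusted p = 0.106)), and the first was called by edgeR's exact test (adjusted p = 0.0126).

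The partners of these initiators were described as lists that were compiled with earlier results of these data known. Beside the counts of these lists and of the marker lists below, 21.0% of all genes were higher and 22.8% lower in lean tumors after ETS. In obese tumors 21.2% were higher and 19.0% lower. Of 8 adaptors and regulators at the receptor, 5 were lower and 0 higher in lean tumors after ETS, and 3 were higher and 3 lower in obese tumors. Before therapy 5 of the 8 were lower and 0 higher in obese tumors, where 12.9% of all genes were lower. After ETS 0 differed between the hosts, against 5.58% of all genes. Fadd, the adaptor that brings Casp8 to the receptor, fell in both (-0.48 (SE 0.12, adjusted p = 0.00408) in lean and -0.38 (SE 0.12, adjusted p = 0.0169) in obese tumors). Cflar, the catalytically dead relative of Casp8 that blocks it, had a change of -0.042 (SE 0.10, adjusted p = 0.766) in lean tumors but rose in obese ones (0.61 (SE 0.10, adjusted p = 0.000457)), and the effects differed (0.65 (SE 0.15, adjusted p = 0.00657)). On scaled counts Cflar was at 160 to 196 CPM in lean tumors before therapy and 138 to 188 CPM after ETS. Obese tumors had 109 to 124 CPM before therapy and 157 to 191 CPM after ETS, so that the hosts overlapped after ETS. Casp8ap2, a Casp8-associated protein, fell in both hosts (-1.01 and -1.07).

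Of 6 apoptosome and PIDDosome partners, 1 rose in obese tumors, while in lean tumors 3 rose and 1 fell. Pidd1, the core of the PIDDosome and a p53 target, was that 1 in obese tumors (1.13 (SE 0.17, adjusted p = 0.000179)) and rose in lean tumors as well (0.84 (SE 0.17, adjusted p = 0.00109)), opposite to Casp2. Cradd, which links Pidd1 to Casp2, had changes of 0.19 (SE 0.12, adjusted p = 0.216) and 0.15 (SE 0.12, adjusted p = 0.345). Apaf1, the scaffold on which Casp9 is activated, fell in lean tumors (-0.29 (SE 0.11, adjusted p = 0.0459)) and had a change of -0.048 (SE 0.11, adjusted p = 0.766) in obese tumors. The 6 tested of 7 caspase inhibitors were all lower in lean tumors after ETS, where 22.8% of all genes were lower, and in obese tumors 2 were higher and 1 lower. Xiap, which binds active caspases, was among them at -0.24 (SE 0.079, adjusted p = 0.0229) in lean tumors. Serpinb9, an inhibitor of granzyme B, fell in lean tumors (-1.92 (SE 0.24, adjusted p = 3.91e-05)) but rose in obese ones (0.85 (SE 0.24, adjusted p = 0.0121)).

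Casp6, an executioner that cleaves nuclear lamins, was the caspase of this set with more message in obese than lean tumors before therapy. Lean tumors had 19.5, 18.7, 21.1 and 21.0 TPM before therapy and 17.9, 17.2, 20.02 and 20.4 TPM after ETS. Obese tumors had 30.4, 25.8, 26.7 and 28.1 TPM before therapy and 19.5, 20.7, 27 and 25.3 TPM after ETS. All obese tumors before therapy were above all lean tumors, and the other groups overlapped. The difference before therapy was 0.60 (SE 0.088, adjusted p = 0.000180), or 1.52-fold, and after ETS it was 0.13 (SE 0.088, adjusted p = 0.366). In lean tumors Casp6 was called as higher after ETS under TMM scaling (0.28 (SE 0.088, adjusted p = 0.0170)), but this small effect had the other sign on the TPM scale, at -0.085 with limma on log2(TPM + 1), and the call was lost without tumor 2 of the lean group before therapy (adjusted p = 0.0567) and with the exact test (adjusted p = 0.0727). In obese tumors the change was -0.18 (SE 0.088, adjusted p = 0.110). The difference between the ETS effects (-0.47 (SE 0.12, adjusted p = 0.0182)) was not called on the TPM scale (adjusted p = 0.474) or without tumor 1 of the obese ETS group (adjusted p = 0.0583). Casp6 overlaps the lncRNAs Gm46825 and Gm40150, with which it may share reads.

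Dffb, the nuclease that cuts DNA once executioners cleave its inhibitor, fell in lean tumors (-1.27 (SE 0.28, adjusted p = 0.00222)) and had a change of -0.59 (SE 0.28, adjusted p = 0.0999) in obese tumors.

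Casp1, the inflammasome caspase that matures interleukin-1 beta and interleukin-18, varied more than the other 5 caspases, with an SD of log2 CPM of 1.66 over the 16 tumors. It was at 18.6, 18.5, 18.3 and 20.2 TPM in lean tumors before therapy, or 18.9 ± 0.885 TPM (SD, n = 4). After ETS, lean tumors had 4.57, 1.65, 1.08 and 1.37 TPM. Every lean tumor after ETS thus lay under every lean tumor before therapy, and tumor 1 was the highest of the 4. Obese tumors went the other way, from 0.638, 1.70, 0.980 and 0.401 TPM before therapy to 3.30, 2.65, 2.39 and 5.02 TPM after ETS, without overlap. The order of the means was lean before therapy, obese after ETS, lean after ETS and obese before therapy, and the latter 3 groups overlapped their neighbours in that order.

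Casp1 fell 6.58-fold in lean tumors (-2.72 (SE 0.45, adjusted p = 0.000326)), whereas it rose 3.84-fold in obese tumors (1.94 (SE 0.46, adjusted p = 0.00429)). The difference between the ETS effects was 4.66 (SE 0.65, adjusted p = 0.000210). Before therapy, Casp1 was 18.5-fold lower in obese than in lean tumors (-4.21 (SE 0.49, adjusted p = 2.36e-05)), and after ETS the difference was 0.45 (SE 0.44, adjusted p = 0.547), with a 95% interval of -0.40 to 1.31. Without tumor 4 of the obese ETS group, the rise in obese tumors was 1.74 (adjusted p = 0.0104). Without tumor 1 of the lean ETS group, the fall in lean tumors was -3.41 (adjusted p = 5.31e-05), the difference between the ETS effects 5.36 (adjusted p = 3.02e-05) and the difference between hosts after ETS 1.12 (adjusted p = 0.0991).

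Casp4, which senses bacterial lipopolysaccharide inside cells, showed the same directions with smaller changes. Lean tumors had 8.05, 14.2, 11.6 and 9.81 TPM before therapy and 4.33, 2.57, 3.41 and 3.95 TPM after ETS. Obese tumors had 2.82, 2.89, 2.41 and 1.26 TPM before therapy and 2.99, 2.74, 3.42 and 5.82 TPM after ETS. The lean tumors before therapy did not overlap any other tumor, whereas on the TPM scale the obese tumors before and after ETS overlapped. Casp4 fell 2.33-fold in lean tumors (-1.22 (SE 0.26, adjusted p = 0.00181)). Its rise in obese tumors (0.75 (SE 0.26, adjusted p = 0.0334)) was not called under 9 alternatives, among them the TPM scale (adjusted p = 0.104), the exact test (adjusted p = 0.0714) and the fit with only the obese tumors (adjusted p = 0.0892). It was also lost without tumor 3 (adjusted p = 0.0603) or 4 (adjusted p = 0.0964) of the obese group before therapy and without tumor 4 of the obese ETS group (log2 fold change 0.53, adjusted p = 0.109). The difference between the ETS effects was 1.97 (SE 0.37, adjusted p = 0.00202). Casp4 was 4.19-fold lower in obese tumors before therapy (-2.07 (SE 0.27, adjusted p = 6.04e-05)), and after ETS the difference was -0.096 (SE 0.26, adjusted p = 0.854), with a 95% interval of -0.60 to 0.41. Casp1, Casp4 and Casp12 are related genes, so reads from similar stretches could be split between them.

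Of 14 inflammasome and pyroptosis partners, 10 were tested. In lean tumors after ETS 3 were higher and 6 lower, and in obese tumors 5 were higher and 1 lower, with medians of -1.19 and 1.12. Before therapy 8 of the 10 were lower and 0 higher in obese tumors, where 12.9% of all genes were lower. After ETS 2 were lower and 0 higher in obese tumors, where 2.30% of all genes were lower. Gsdmd, the pore-forming substrate of Casp1 and Casp4, fell in lean tumors (-2.47 (SE 0.26, adjusted p = 9.48e-06)) but rose in obese ones (1.04 (SE 0.26, adjusted p = 0.00508)). The sensor Aim2 did the same (-2.85 and 1.20), as did Naip5 (-1.95 and 1.60). The sensor Nlrp3 fell in lean tumors (-3.10 (SE 0.73, adjusted p = 0.00352)) and had a change of 1.62 (SE 0.69, adjusted p = 0.0739) in obese tumors. Pycard, the adaptor that joins sensors to Casp1, fell in both hosts (-0.88 (SE 0.13, adjusted p = 0.000156) and -0.59 (SE 0.13, adjusted p = 0.00344)). Il18, a substrate of Casp1, rose in both (0.63 (SE 0.22, adjusted p = 0.0272) and 1.46 (SE 0.22, adjusted p = 0.000212)). Il1b had a count of 0 in at least 1 tumor and was not tested. Casp12, the third caspase of that group, fell in lean tumors (-2.27 (SE 0.55, adjusted p = 0.00411)) but rose in obese ones (2.196 (SE 0.58, adjusted p = 0.00776)).

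Fas, the receptor of Fas ligand, was the least abundant of the 8 messages in each group by mean. Its counts were 102, 100, 61 and 70 reads in lean tumors before therapy and 49, 51, 26 and 22 reads after ETS. In obese tumors they were 2, 28, 11 and 4 reads before therapy and 78, 67, 61 and 126 reads after ETS. As levels these were 2.12, 2.32, 1.11 and 1.69 TPM, 0.711, 1.02, 0.473 and 0.329 TPM, 0.0410, 0.669, 0.195 and 0.0570 TPM and 1.59, 1.63, 1.35 and 2.89 TPM in the same order of groups. In TPM the lean tumors before and after ETS did not overlap, nor did the obese tumors before and after ETS, while lean tumors before therapy and obese tumors after ETS overlapped.

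Fas rose 6.98-fold in obese tumors after ETS (2.80 (SE 0.56, adjusted p = 0.00147)), and without tumor 4 of the obese ETS group the change was 2.56 (adjusted p = 0.00330). In lean tumors the change was -0.95 (SE 0.51, adjusted p = 0.142), which was called as a fall by the exact test (adjusted p = 0.0273) and by limma on log2(TPM + 1) (adjusted p = 0.00435). The difference between the ETS effects was 3.75 (SE 0.76, adjusted p = 0.00337). Before therapy, Fas was 6.18-fold lower in obese than in lean tumors (-2.63 (SE 0.56, adjusted p = 0.00305)). After ETS the difference was 1.12 (SE 0.51, adjusted p = 0.184), and limma on log2(TPM + 1) called it (adjusted p = 0.0354). The level of Fas in obese tumors before therapy was highest in tumor 2, with 28 reads against 2 to 11, and without it the rise in obese tumors was 3.85 (adjusted p = 0.000177), the difference between the ETS effects 4.80 (adjusted p = 0.000205) and the difference before therapy -3.68 (adjusted p = 0.000180).

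Fasl, the ligand of Fas, which is made by activated T and NK cells, could not be tested because its count was 0 in some tumors. It had 26, 79, 41 and 51 reads in lean tumors before therapy and 0 reads in all 4 lean tumors after ETS. In obese tumors it had 4, 0, 0 and 0 reads before therapy and 0, 0, 7 and 13 reads after ETS. The level in lean tumors was at least 64.5-fold lower after ETS, with a floor of 3 counts over the group. Of 6 death ligands 2 were tested, both of which rose in obese tumors and 1 of which fell in lean tumors. Tnfsf10, which encodes TRAIL, the ligand of Tnfrsf10b, fell in lean tumors (-4.27 (SE 0.59, adjusted p = 7.7e-05)) but rose in obese ones (1.94 (SE 0.57, adjusted p = 0.0144)), and the effects differed by 6.22 (SE 0.81, adjusted p = 0.000137). Of 8 other death and decoy receptors, 6 were tested, of which 4 rose in obese tumors, while in lean tumors 1 rose and 1 fell. Tnfrsf11b, a decoy receptor for TRAIL and RANKL, rose in both hosts (2.58 (SE 0.43, adjusted p = 0.000296) and 2.52 (SE 0.43, adjusted p = 0.000448)), and Tnfrsf21 (death receptor 6) fell in lean tumors (-1.58 (SE 0.49, adjusted p = 0.0165)) but rose in obese ones (2.11 (SE 0.50, adjusted p = 0.00423)).

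Tnfrsf10b, the mouse TRAIL receptor and a p53 target, rose after ETS in both hosts. It was at 5.55, 7.15, 7.16 and 8.04 TPM in lean tumors before therapy and 13.5, 11.04, 15.5 and 16.3 TPM after ETS. In obese tumors it was at 8.52, 9.11, 7.95 and 8.64 TPM before therapy and 18.2, 17.1, 20.2 and 16.8 TPM after ETS. All tumors after ETS were above all tumors before therapy, whichever the host. The rise was 2.61-fold in lean tumors (1.38 (SE 0.11, adjusted p = 1.07e-06)) and 2.26-fold in obese tumors (1.17 (SE 0.11, adjusted p = 7.57e-06)). The difference between these effects was -0.21 (SE 0.15, adjusted p = 0.366), with a 95% interval of -0.50 to 0.080. Before therapy, Tnfrsf10b was higher in obese tumors (0.44 (SE 0.11, adjusted p = 0.00674)), but on the TPM scale this was not called (adjusted p = 0.147) and the groups overlapped. After ETS the difference was 0.23 (SE 0.10, adjusted p = 0.193).

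Of 17 other p53 target genes, 16 were tested, and Pmaip1, with a count of 0 in 1 tumor, was not. Pmaip1 had 64 to 154 reads in lean tumors before therapy and 9 to 36 reads after ETS. In obese tumors it had 0 to 38 reads before therapy and 40 to 159 reads after ETS. Of the 16 tested, 15 were higher and 0 lower in lean tumors after ETS. In obese tumors 12 were higher and 0 lower, and the medians were 1.22 and 1.06. The ETS effect was less positive in obese tumors for 7 of the 16 and more positive for 0, against 6.35% and 10.1% of all genes. Before therapy 8 were higher and 0 lower in obese tumors, where 13.5% of all genes were higher. After ETS 0 differed between the hosts, against 5.58% of all genes. The summed level of the 17 genes was 573 to 749 TPM in lean tumors before therapy, 2487 to 2758 TPM after ETS, 1297 to 1387 TPM in obese tumors before therapy and 2574 to 2865 TPM after ETS. Cdkn1a, which halts the cell cycle, rose in lean tumors (3.44 (SE 0.23, adjusted p = 3.44e-07)) and less so in obese tumors (1.27 (SE 0.21, adjusted p = 0.000376)), with a difference of -2.17 (SE 0.29, adjusted p = 0.000185), and was higher in obese tumors before therapy (2.22 (SE 0.22, adjusted p = 4.14e-06)). Mdm2, the ligase that degrades p53, rose in lean (0.80 (SE 0.12, adjusted p = 0.000133)) and obese tumors (0.83 (SE 0.12, adjusted p = 0.000140)), with a difference of 0.023 (SE 0.17, adjusted p = 0.941). Bbc3, which encodes the death protein PUMA, rose in lean tumors (1.27 (SE 0.23, adjusted p = 0.000646)) and had a change of 0.00095 (SE 0.23, adjusted p = 0.998) in obese tumors. Its level was 4.18 to 7.56 TPM in lean tumors before therapy and 8.46 to 14.2 TPM after ETS. In obese tumors it was already 12.7 to 17.1 TPM before therapy, and 8.47 to 21.9 TPM after ETS.

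As a share of the summed TPM of the 6 caspases, Casp8 took 41.2% ± 1.92 (SD, n = 4) in lean tumors before therapy, 43.0% ± 1.86 after ETS, 40.7% ± 2.11 in obese tumors before therapy and 45.1% ± 1.80 after ETS. The sum itself was 185 ± 23.3 TPM in lean tumors before therapy, 97.1 ± 15.4 TPM after ETS, 126 ± 8.79 TPM in obese tumors before therapy and 109.8 ± 16.6 TPM after ETS. Casp1 took 10.3% ± 1.46 of the sum in lean tumors before therapy, 2.31% ± 1.73 after ETS, 0.734% ± 0.426 in obese tumors before therapy and 3.07% ± 0.985 after ETS. The share of Casp6 was 10.9% ± 1.33, 19.7% ± 2.03, 22.1% ± 1.76 and 21.1% ± 0.514 in the same order, so that lean tumors before therapy had the lowest share of Casp6 and the highest of Casp1. Shares of a sum are not independent of each other and were not tested.

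**Figure D3:**
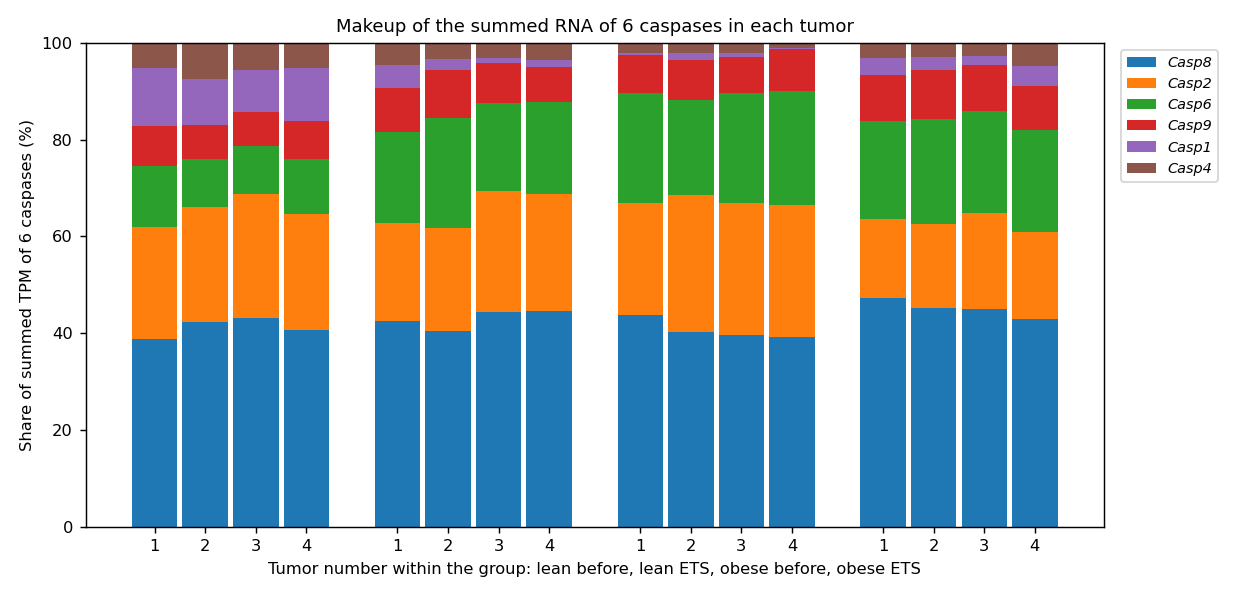
Share of each caspase in the summed TPM of the 6 caspases (vertical axis, percent) for each of the 16 tumors, ordered by group. Casp8 (lowest block) takes 38.8% to 47.3% in every tumor, and Casp1 (8.68% to 12.04%) and Casp4 (5.22% to 7.41%) take more of the sum in lean tumors before therapy than in any other tumor.

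Of the remaining lists, all 3 necroptosis genes were lower after ETS in lean hosts and higher in obese hosts: Ripk3 (-1.64 and 1.38), its substrate Mlkl (-1.08 and 0.42) and the sensor Zbp1 (-4.35 and 2.83). Before therapy all 3 were lower in obese tumors (12.9% of all genes), and after ETS 1 was higher (3.28% of all genes). Of 20 interferon response genes, 14 were lower and 0 higher in lean tumors, and 17 were higher and 0 lower in obese tumors, with medians of -1.85 and 2.48. Before therapy all 20 were lower in obese tumors, where 12.9% of all genes were, and all 20 had a more positive ETS effect in obese tumors, where 10.1% of all genes did. Irf1, a factor induced by interferon gamma, fell in lean tumors (-3.46 (SE 0.28, adjusted p = 1.47e-06)) and had a change of 0.36 (SE 0.26, adjusted p = 0.294) in obese tumors. The summed level of the 20 genes was 1735 to 3636 TPM in lean tumors before therapy, 325 to 455 TPM after ETS, 130 to 181 TPM in obese tumors before therapy and 362 to 519 TPM after ETS.

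**Figure D4:**
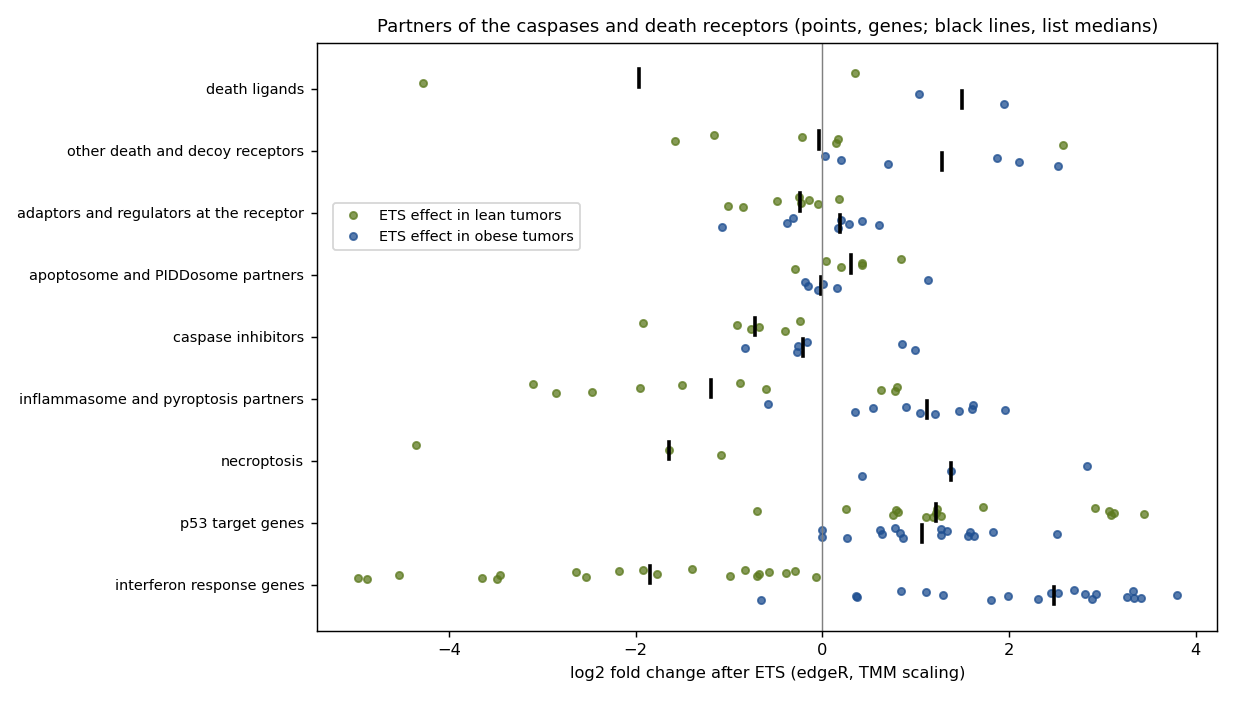
Log2 fold change after ETS (horizontal axis) of the tested genes of 9 lists of partners, in lean (green) and obese tumors (blue). Points are genes and black lines list medians. The medians of the p53 target genes are above 0 in both hosts (1.22 and 1.06), and those of the interferon response genes are -1.85 in lean and 2.48 in obese tumors.

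Markers of several other cell types changed after ETS in the same directions as Casp1, Casp4 and Fas. Of all genes, 10.1% had a more positive and 6.35% a less positive ETS effect in obese tumors. Before therapy 13.5% were higher and 12.9% lower in obese tumors, and after ETS 3.28% were higher and 2.30% lower. Of the 9 macrophage markers, none of which was at 0 in any whole group, 7 fell in lean tumors after ETS, 6 rose in obese tumors, 8 were lower in obese tumors before therapy and 0 differed after ETS. Their obese minus lean differences after ETS had a median of 1.41, from 0.90 to 2.50. Casp1 and Casp4 lay below that range and Fas within it. Of 9 T and NK cell markers, 0 could be tested, and their sum was 58.9 to 112 TPM in lean tumors before therapy, 0.390 to 2.42 TPM after ETS, 0 to 1.62 TPM in obese tumors before therapy (Cd3e and Ncr1 at 0 in all 4) and 0.992 to 5.27 TPM after ETS. Of 6 fibroblast markers, 3 fell in lean tumors after ETS (median -1.84 over the 6), 6 rose in obese tumors (3.08), 6 differed between the ETS effects (4.80, against 4.63 for the macrophage markers) and 1 was lower in obese tumors before therapy, while after ETS 3 were higher in obese tumors. Their sum was 214 to 802 TPM, 30.6 to 171 TPM, 31.5 to 225 TPM and 230 to 2116 TPM in lean tumors before and after ETS and obese tumors before and after ETS. Of 5 endothelial markers, 1 fell in lean tumors, 4 rose in obese tumors, 3 differed between the ETS effects and 2 were lower in obese tumors before therapy, and their sum was 77.0 to 99.5 TPM, 63.0 to 74.8 TPM, 44.2 to 66.7 TPM and 64.1 to 138 TPM in the same order. None of these fibroblast and endothelial markers was at 0 in a whole group. Melanocyte markers summed to 17978.5 to 22038 TPM in lean tumors before therapy and 16498 to 19436 TPM after ETS. In obese tumors they summed to 9129 to 13433 TPM before therapy and 9440 to 18412 TPM after ETS. Within lean tumors before therapy, Casp1 was 18.3 TPM in tumor 3, whose macrophage markers summed to 762 TPM, and 18.5 TPM in tumor 2, whose markers summed to 2031 TPM. On scaled counts, Casp1 in lean tumors before therapy was lowest in tumor 3, at 12.0 CPM, against 12.8 to 14.6 CPM in the others. Obese tumor 4 after ETS had a macrophage sum of 1493 TPM with 5.02 TPM of Casp1. In obese tumors before therapy, the order of the 4 tumors by Casp1 was their order by macrophage sum. It ran from 0.401 TPM of Casp1 in tumor 4 to 1.70 TPM in tumor 2, and in the other groups the orders differed. Within each of the lean groups, the order of the 4 tumors by Fas was also their order by macrophage sum, from 1.11 TPM of Fas in tumor 3 to 2.32 TPM in tumor 2 before therapy, and in the obese groups the orders differed. The part of these cells in the changes of Casp1, Casp4 and Fas was not tested.

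**Figure D5:**
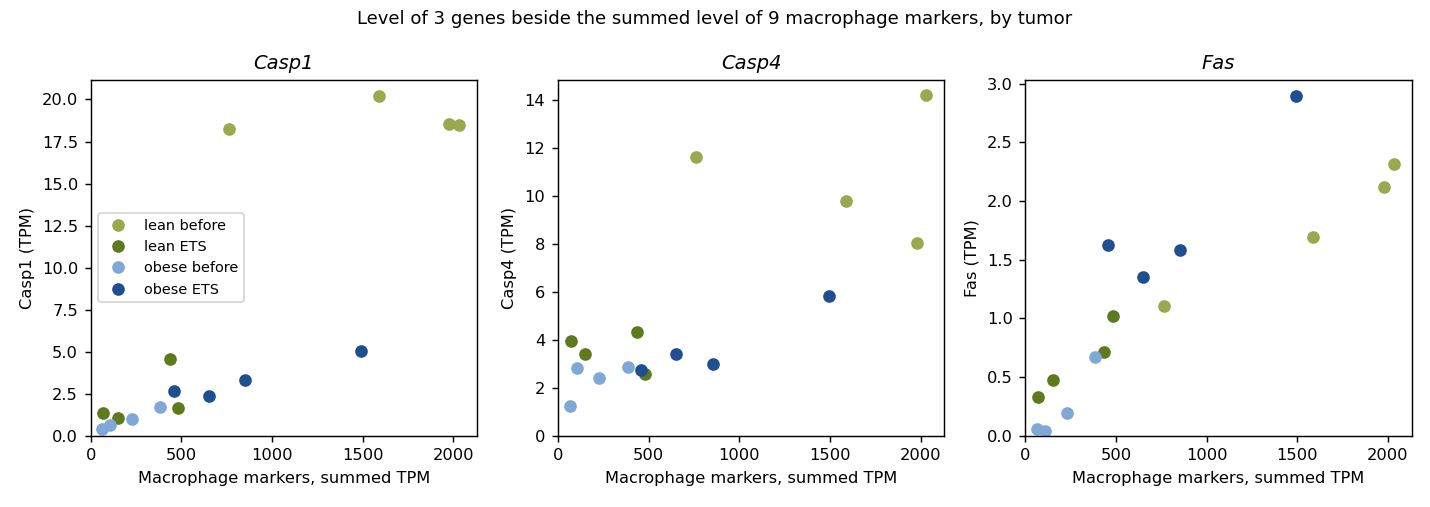
Level of Casp1, Casp4 and Fas in TPM (vertical axes) against the summed TPM of 9 macrophage markers (horizontal axes), by tumor and group. The 4 lean tumors before therapy lie at 18.3 to 20.2 TPM of Casp1 over marker sums of 762 to 2031 TPM. Casp1 follows the order of the marker sums in obese tumors before therapy (from 0.401 to 1.70 TPM) but not in the other groups. Fas follows it in both lean groups (from 1.11 to 2.32 TPM before therapy and from 0.329 to 1.02 TPM after ETS) but not in the obese groups.

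The genes most like each of the 8 in pattern were taken as those with the smallest root-mean-square difference of log2 CPM, centred on each gene's own mean, over the 16 tumors among 13308 genes. For Casp1 they were 9930111J21Rik2 (0.345) and Sp100 (0.368), against an SD of Casp1 itself of 1.66. Casp4 was closest to Trafd1 (0.294) and Dock8 (0.330), with an SD of 0.812. For Fas they were Cd68 (0.536) and Aplnr (0.557), with an SD of 1.39, and Cd68 is one of the macrophage markers above. Tnfrsf10b was closest to Slc19a2 (0.155) and Ccnd2 (0.169), with an SD of 0.670. The steadier caspases gave Stk38l (0.0891) and Ncoa7 (0.106) for Casp8, G3bp2 (0.0766) and Mapk9 (0.0944) for Casp9, Tcf20 (0.0994) and Baz1b (0.102) for Casp2 and Fam8a1 (0.0839) for Casp6, whose own SDs were 0.223, 0.157, 0.394 and 0.232. Among the 8 genes, Casp8 and Casp9 were the closest pair (0.154), and Casp1 and Tnfrsf10b the farthest (1.99).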

How the data were processed

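RNA of 16 B16F10 tumors (4 per group) was sequenced from stranded mRNA libraries with paired ends of 101 bases. The authors trimmed reads with Trimmomatic, aligned them to mm10 with HISAT2 2.1.0 and quantified genes with StringTie 2.1.3b, after base calling with bcl2fastq 2.20.0 per the labels. The counts the authors deposited are raw whole numbers for each gene, and the deposited TPM values come from the same step. The 16 FPKM columns had no use here. Strand use in counting is not given in the sources used here.

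Of 45777 genes, 29568 were left out because 1 tumor or more had a count of 0. Counts were TMM-scaled and tested with edgeR's quasi-likelihood test (edgeR 4.0.16, R 4.3.3) in a fit of all 16 tumors with a mean for each group, with Benjamini-Hochberg adjustment over the 16209 genes. SEs were the absolute log2 fold change over the square root of F, and 95% intervals from the SE. The test was checked on counts simulated from the tumors' means with known changes planted in one group. Alternatives were DESeq2 1.42.0 or its size factors, other filters, edgeR's exact test on counts with 1 added, limma 3.58.1 on log2(TPM + 1) or log2(TPM + 0.1), only the tumors compared, a replicate block, each tumor left out, and a fold change of at least 2 with an unadjusted p under 0.05. Total counts were 47199949 to 61655287 per tumor. Levels are TPM, for each of which the SD over 4 tumors is the error.

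The 8 genes and the partner and marker lists were chosen with earlier results of these data known. Of the partner lists, 18 genes (such as Fasl and Cdkn1a) were set to be named whatever their values, as were those with an adjusted p under 0.05 and at least a 2-fold change in lean tumors, in obese tumors or in the difference, of which examples are given. For each of the 8, the 2 genes of most similar pattern with a mean of at least 1 CPM were named. Some genes of these lists and patterns are not reported here. Genes were matched by identifier to RefSeq GRCm38.p6, which found 45679 of them.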

Additional observations from a re-analysis of the deposited data

Results flagged for a closer look

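The effect of ETS differed between obese and lean tumors, by the test of the difference itself (edgeR, adjusted p under 0.05), for 6 of the 8 genes. As log2 values of obese minus lean, the differences were 4.66 for Casp1, 1.97 for Casp4, 3.75 for Fas, 0.51 for Casp8, 0.49 for Casp9 and -0.47 for Casp6. Those of Casp6 and Casp8 were lost under some settings, as given with their values.

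In 2 of 32 sets of 4 tumors, the tumor at an end lay far from the others by Dixon's test, when chance alone gives about 1 in 20. Both were of Casp1, in TPM. Tumor 4 of the lean group before therapy had 20.2 TPM, when the other 3 had 18.3 to 18.6 TPM. On scaled counts it had 13.9 CPM, within the 12.0 to 14.6 CPM of the other 3. Tumor 1 of the lean ETS group had 4.57 TPM, when the other 3 had 1.08 to 1.65 TPM. On scaled counts it had 4.24 CPM, against 0.913 to 1.70 CPM.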

How the results depend on the processing

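Of 728 log2 fold changes recomputed for the 8 genes, 682 kept their direction and their side of the threshold, 17 lost the call, 7 gained it and 22 changed sign. The only called value that changed sign was Casp6 in lean tumors (-0.085 with limma on log2(TPM + 1), -0.089 with log2(TPM + 0.1)), where the TPM scale moves the median of all genes. The other sign changes were of values near 0 that were not called. For Casp8 in obese tumors these were -0.00031 without a filter, -0.0018 with filterByExpr, -0.055 and -0.056 on the TPM scales, and -0.022 to 0.072 with a tumor left out. The Casp2 difference was 0.26 and 0.27 on the TPM scales and -0.10 to 0.055 with a tumor left out, the Tnfrsf10b difference 0.080 and 0.068 on the TPM scales, and Casp4 between hosts after ETS 0.029 and 0.030 on the TPM scales and -0.32 to 0.031 with a tumor left out. The limit of a 2-fold change with an unadjusted p under 0.05 left 3 of the 8 genes in lean tumors (15.2% of all genes), 3 in obese tumors (13.3%), 3 in the difference (12.3%) and 3 before therapy (11.6%), and called 1 after ETS, as did limma on log2(TPM + 1). With a tumor left out, 6 to 7 genes were called in lean tumors, 4 to 5 in obese tumors and 5 to 6 in the difference. Of the genes of the partner lists, 3 differed between hosts after ETS, against 5 with DESeq2's size factors, 13 with DESeq2, 0 with only the tumors compared, 5 with the replicate block and 1 to 4 with a tumor left out. These 3 were 2 of the 10 tested inflammasome and pyroptosis partners and 1 of the 3 necroptosis genes. Of all genes, 904 (5.58%) differed. In the same order of settings 1014, 2078, 69 and 1683 did, and 185 to 1340 with a tumor left out. The replicate numbers did not pair the samples (correlations of deviations -0.112 to 0.452 between same-numbered tumors). With the replicate block, Casp4 in obese tumors was not called (0.75, adjusted p = 0.0507), Casp2 before therapy was (-0.28, adjusted p = 0.0360), and no other call of the 8 genes changed. Depth bears most on Fas (2 to 126 reads per tumor) and on Casp1 in obese tumors before therapy (19 to 64 reads). The causes were not tested.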
